A study of Homo sapiens with 8 samples.

Results

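The arms of miR-192, miR-194 and miR-215 were described in HCT116 cells sorted by the surface marker CD44v6. They were taken by name from the deposited table of raw reads per mature microRNA (miRNA), and all 5 arms listed by name were present (hsa-miR-192-5p, hsa-miR-192-3p, hsa-miR-194-5p, hsa-miR-194-3p and hsa-miR-215-5p) among 2026 entries. HCT116 is a human colorectal cancer cell line, and CD44v6 is a variant of CD44, a receptor for hyaluronan, that is used to mark stem-like colorectal cancer cells. Spheroids were grown from HCT116 without serum, with B27 and N2 supplements, basic fibroblast growth factor and epidermal growth factor, in flasks to which cells do not attach. Living cells that bound the CD44v6 antibody made up the CD44v6-positive group, and living cells that did not bind it made up the CD44v6-negative group. Both groups come from 1 line and from spheroid culture, and the labels give neither group a drug.

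There were 2 CD44v6-positive and 2 CD44v6-negative samples. The labels list 8 sequencing entries, 4 per group, which share 4 combined identities, and each column of the table holds 1 combined identity, so n was 2 per group. Nothing in the labels says that separate cultures were used within a group. The p-values thus cover the spread between these 4 samples alone, and that spread may be technical. The CD44v6-positive libraries held 919802 and 154481 reads, against 7880631 and 4592278 reads in the CD44v6-negative libraries, a 51.0-fold span from deepest to shallowest. CD44v6-positive sample 2, the shallowest, is the library on which several values depend.

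A miRNA is cut from a hairpin as a 5p and a 3p arm, of which 1 usually stays as the guide that represses messenger RNAs, mainly through its seed (bases 2 to 8), while the other, the passenger, is degraded. miR-192, miR-194 and miR-215 are abundant in the epithelium of the intestine and in liver and kidney, are raised by hepatocyte nuclear factors during enterocyte differentiation, and are transcribed in response to p53, which parental HCT116 carries in wild-type form. miR-192 and miR-215 are known to hold back the cell cycle, and lower levels of these miRNAs are often reported in colorectal tumours than in normal mucosa.

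The mature sequences show which members can be told apart by a read. They are from RefSeq (GRCh38.p14), which held all 5 members, and are written 5′ to 3′ with the seed in capitals.
miR-192-5p: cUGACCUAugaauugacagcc
miR-215-5p: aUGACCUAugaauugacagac
miR-194-5p: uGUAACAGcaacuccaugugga
miR-192-3p: cUGCCAAUuccauaggucacag
miR-194-3p: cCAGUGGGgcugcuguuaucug

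miR-192-5p and miR-215-5p have the same seed, and no other mature miRNA in the RefSeq table has it. They are 21 bases long and identical at 19. The differences, with the base of miR-192-5p first and positions counted from 1 at the 5′ end, are C1A and C20A. Both lie at the ends of the molecule, and the mismatch setting and the handling of reads that fit several entries are not given in the sources at hand, so the split of reads between miR-192-5p and miR-215-5p is uncertain. The seeds of miR-194-5p, miR-192-3p and miR-194-3p are shared with no other mature miRNA of that table.

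The hairpins are shown with their mature arms in capitals, because they show which locus can give each arm.
MIR192: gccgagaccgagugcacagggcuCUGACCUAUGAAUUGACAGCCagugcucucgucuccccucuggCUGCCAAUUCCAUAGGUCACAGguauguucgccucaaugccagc
MIR194-2: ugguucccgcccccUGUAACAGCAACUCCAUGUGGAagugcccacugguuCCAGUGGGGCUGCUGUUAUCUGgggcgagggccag
MIR215: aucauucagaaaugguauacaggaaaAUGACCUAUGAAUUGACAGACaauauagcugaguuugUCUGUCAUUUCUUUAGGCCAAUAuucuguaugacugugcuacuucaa
MIR194-1: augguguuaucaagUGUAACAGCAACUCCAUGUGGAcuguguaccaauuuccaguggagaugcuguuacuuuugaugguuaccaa

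The 4 hairpins form 2 pairs on GRCh38, all on the minus strand. MIR192 (chr11:64891137-64891246) and MIR194-2 (chr11:64891355-64891439) lie 108 bases apart in an exon of the noncoding gene MIR194-2HG. MIR215 (chr1:220117853-220117962) and MIR194-1 (chr1:220118157-220118241) lie 194 bases apart inside IARS2, a gene of the opposite strand, and outside its exons. miR-192-5p can therefore come from chromosome 11 alone and miR-215-5p from chromosome 1 alone. miR-194-5p has the same 22 bases at both loci, so its reads are the sum of both pairs, whereas the annotated miR-194-3p belongs to MIR194-2.

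miR-192-5p, a guide strand, was the most abundant of the members in every sample. It had 956 and 875 reads in CD44v6-positive samples 1 and 2, against 9869 and 7290 reads in CD44v6-negative samples 1 and 2. In CPM (reads of a miRNA per 1000000 reads of its library) scaled by TMM, edgeR's scaling for library composition, these were 1031 and 4556 CPM in the CD44v6-positive samples and 1887 and 1321 CPM in the CD44v6-negative samples. CD44v6-positive sample 2 was the highest of all and CD44v6-positive sample 1 the lowest, so the groups overlapped. The mean was 2794 ± 2493 CPM in CD44v6-positive cells, against 1604 ± 400.2 CPM in the CD44v6-negative samples (SD, n = 2 each), and the SD of the CD44v6-positive samples exceeded the difference. The log2 fold change of CD44v6-positive over CD44v6-negative was 0.80 ± 0.73 (SE), with a 95% interval from -0.97 to 2.57 and an adjusted p of 0.507 in edgeR's quasi-likelihood test with Benjamini-Hochberg adjustment over the 570 miRNAs tested. By reads it stood at places 68 and 34 among all entries of the CD44v6-positive samples and at places 70 and 67 of the CD44v6-negative samples.

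miR-194-5p, the guide strand of both miR-194 hairpins, had 90 and 45 reads in CD44v6-positive samples 1 and 2, against 608 and 433 reads in CD44v6-negative samples 1 and 2. These were 97.0 and 234 CPM in CD44v6-positive samples and 116 and 78.4 CPM in CD44v6-negative samples. CD44v6-positive sample 2 was again the highest, and CD44v6-positive sample 1 lay between the CD44v6-negative samples. The log2 fold change was 0.74 ± 0.65 (SE), with a 95% interval from -0.82 to 2.30 and an edgeR adjusted p of 0.488.

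miR-215-5p, the guide strand that shares the seed of miR-192-5p, had 55 and 48 reads in CD44v6-positive samples 1 and 2, against 318 and 163 reads in CD44v6-negative samples 1 and 2. These were 59.3 and 250.0 CPM in CD44v6-positive samples and 60.8 and 29.5 CPM in CD44v6-negative samples. CD44v6-positive sample 1 and CD44v6-negative sample 1 had nearly the same level, so the groups overlapped here too, by the width of that pair. The mean was 155 ± 135 CPM in CD44v6-positive cells, against 45.2 ± 22.1 CPM in the CD44v6-negative samples (SD, n = 2 each). The log2 fold change was 1.73 ± 0.84 (SE), with a 95% interval from -0.31 to 3.77 and an edgeR adjusted p of 0.216. It was the largest value of the 3 guide strands, and it did not pass in this fit.

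**Figure D1:**
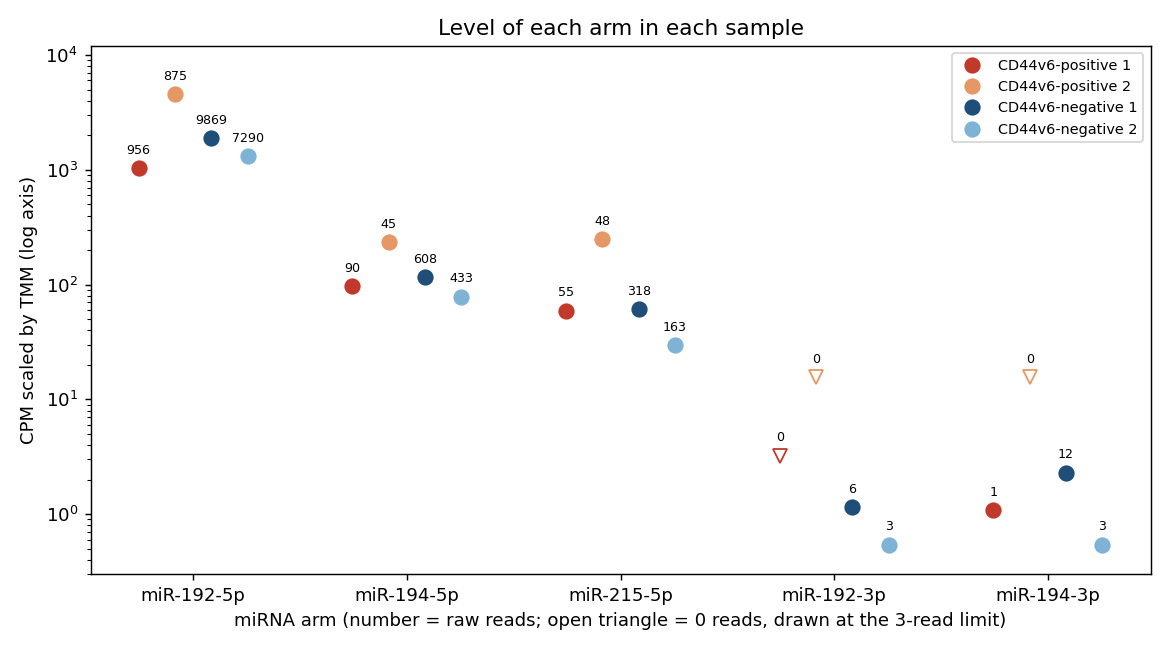
Level of each of the 5 arms in each sample, in CPM scaled by TMM on a log axis, with the raw reads printed above each point and open triangles for 0 reads, drawn at the level of 3 reads. For miR-192-5p, miR-194-5p and miR-215-5p the point of CD44v6-positive sample 2 is the highest, at 4556, 234 and 250.0 CPM, with the other 3 samples below it.

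The 3p arms were near the limit of detection. miR-192-3p, the passenger, had 0 and 0 reads in the CD44v6-positive samples and 6 and 3 reads in the CD44v6-negative samples. A count of 0 allows up to 3 reads, which is 3.23 and 15.6 CPM in CD44v6-positive samples 1 and 2, above the 1.15 and 0.544 CPM measured in the CD44v6-negative samples, so a difference was not detectable at this depth. miR-194-3p had 1 and 0 reads in the CD44v6-positive samples and 12 and 3 reads in the CD44v6-negative samples. miR-215-3p, the other arm of MIR215, had 0 reads in all 4 samples. Neither 3p arm of miR-192 or miR-194 passed the filter on low counts, so 3 of the 5 members were tested. PCR copies of a molecule were counted as separate reads, so intervals and limits from counts cover no more than counting error.

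In both hairpin families nearly all reads came from the 5p arm. Over the 4 libraries miR-192 had 18990 reads of the 5p arm and 9 of the 3p arm, so that 99.95% came from the guide. miR-194 had 1176 and 16 reads, or 98.7% from the guide. The 5p reads of miR-194 cover both of its hairpins, whereas the 3p arm counted is annotated at MIR194-2 only. That share therefore does not describe either miR-194 hairpin by itself. Among the 130 miRNA names that had both arms in the table and at least 1000 reads, the median share of the dominant arm was 97.3%. On that scale miR-192 was place 6 from the most one-sided and miR-194 place 50. By library, miR-192-3p made up 0% of the miR-192 reads in both CD44v6-positive samples (exact 95% binomial intervals up to 0.385% and 0.421%) and 0.0608% and 0.0411% in CD44v6-negative samples 1 and 2, so the arm balance could not be compared between the groups at this depth.

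No miRNA of the 570 tested passed an adjusted p under 0.05 in edgeR (0% called), and none of the 3 guide strands did. At an unadjusted p under 0.05 there were 174 of the 570 (30.5%) and 0 of the 3. DESeq2 called 51 of 603 (8.46%) and limma-voom 4 of 570 (0.702%), again with 0 of the 3, at adjusted p of 0.735, 0.731 and 0.247 in DESeq2 and 0.759, 0.582 and 0.294 in limma-voom for miR-192-5p, miR-194-5p and miR-215-5p. With TMM the groups did not overlap in 339 of the 570 tested miRNAs (59.5%), and they overlapped in all 3 guide strands.

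The scaling decided whether the groups overlapped for miR-194-5p and miR-215-5p. The TMM factors, by which library sizes are multiplied, were 1.01 and 1.24 in CD44v6-positive samples 1 and 2, against 0.664 and 1.20 in CD44v6-negative samples 1 and 2. In CPM of total reads, without TMM, miR-215-5p was at 59.8 and 311 CPM in CD44v6-positive samples and at 40.4 and 35.5 CPM in CD44v6-negative samples. On that scale miR-194-5p was at 97.8 and 291 CPM in CD44v6-positive samples and at 77.2 and 94.3 CPM in CD44v6-negative samples. Both were then higher in each CD44v6-positive sample, as were 159 of the 570 tested miRNAs (27.9%), while miR-192-5p still overlapped. The log2 fold changes were 1.24, 1.16 and 2.25 for miR-192-5p, miR-194-5p and miR-215-5p with total count scaling, and none passed. Over the 570 tested miRNAs the log2 fold change had a median of -0.31 with TMM, 0.04 with upper quartile and 0.01 with total count scaling. Relative to that median, the values of miR-192-5p, miR-194-5p and miR-215-5p were 1.104, 1.05 and 2.04 with TMM and 1.23, 1.15 and 2.25 with total count scaling.

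The CD44v6-positive samples differed from each other by more than the groups did. In log2 CPM, CD44v6-positive sample 2 exceeded sample 1 by 2.14 for miR-192-5p, by 1.27 for miR-194-5p and by 2.06 for miR-215-5p. The middle part of all tested miRNAs, from the lower to the upper quartile, ran from -0.87 to 0.93 in that difference. A difference at least as high as that of miR-192-5p was found in 8.60% of the tested miRNAs, as that of miR-194-5p in 19.6%, and as that of miR-215-5p in 9.47%. CD44v6-negative sample 1 exceeded sample 2 by 0.51, 0.56 and 1.03 for the same arms, against quartiles of -0.71 and 0.59. Without CD44v6-positive sample 2 the log2 fold changes were -0.43 for miR-192-5p, 0.20 for miR-194-5p and 0.59 for miR-215-5p, so that of miR-192-5p changed sign. Without CD44v6-positive sample 1 they were 1.39, 1.15 and 2.36.

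**Figure D2:**
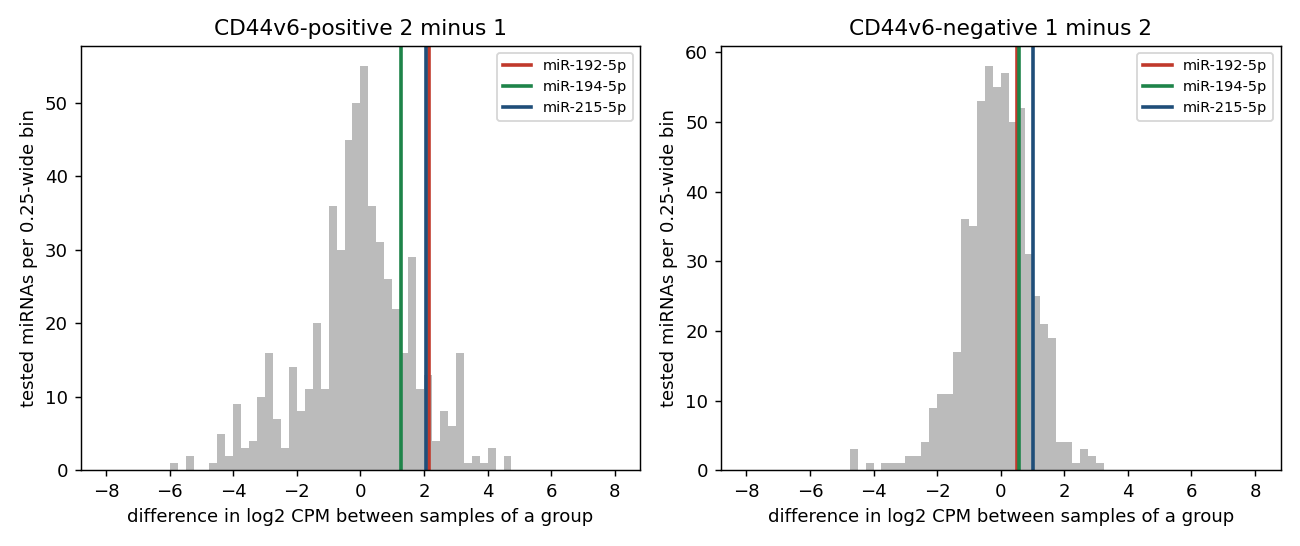
Number of tested miRNAs by the difference in log2 CPM between the samples of a group, CD44v6-positive 2 minus 1 on the left and CD44v6-negative 1 minus 2 on the right, with vertical lines for the 3 guide strands. On the left the lines of miR-192-5p and miR-215-5p stand at 2.14 and 2.06, in the upper tail, and on the right the lines stand at 0.51 to 1.03, nearer the centre.

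**Figure D3:**
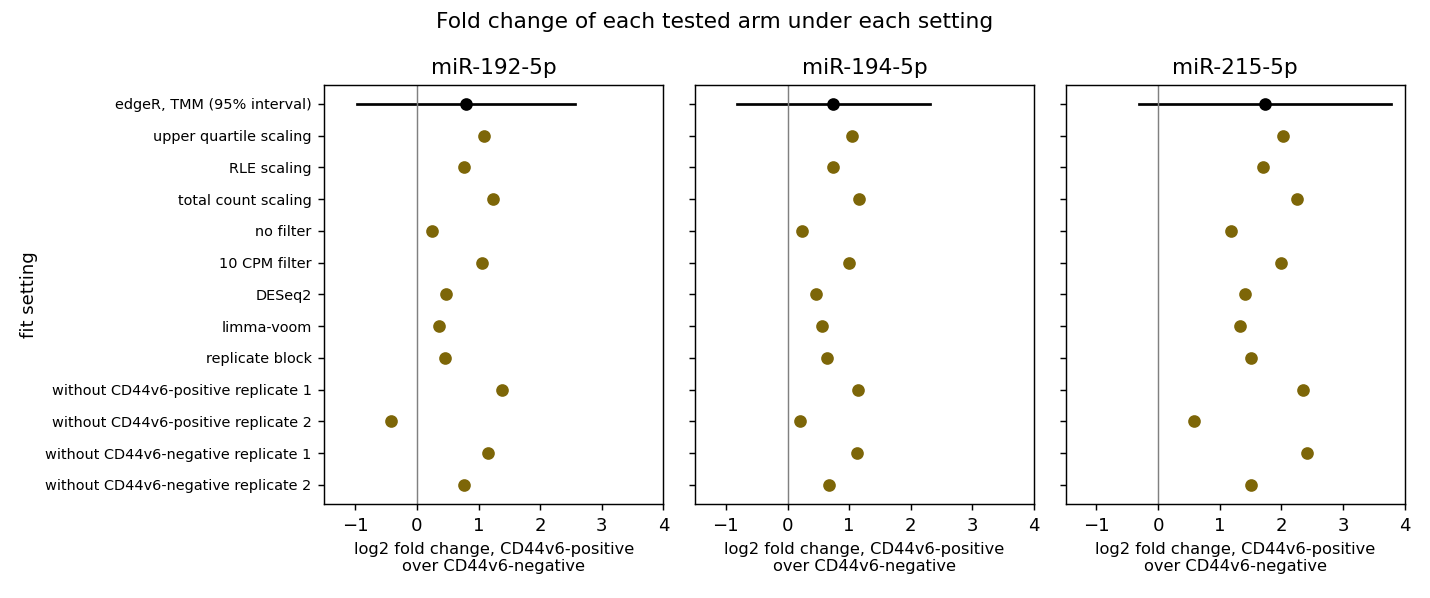
Log2 fold change of CD44v6-positive over CD44v6-negative for the 3 guide strands (points) under each fit, 1 setting per row, with the 95% interval of the edgeR fit with TMM as a bar and a vertical line at 0. All 3 bars cross 0, and the point without CD44v6-positive replicate 2 is below 0 for miR-192-5p, at -0.43.

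Ratios of reads within a library do not depend on scaling, and the groups did not overlap in the ratio of the seed partners. The split of reads between these partners is uncertain, because the mismatch setting is not given. The part of wrongly assigned reads in this ratio was not tested. miR-215-5p made up 5.44% and 5.20% of the reads of miR-215-5p and miR-192-5p together in CD44v6-positive samples 1 and 2, against 3.12% and 2.19% in CD44v6-negative samples 1 and 2. The exact 95% binomial intervals were 4.12 to 7.02% and 3.86 to 6.84% in the CD44v6-positive samples, and 2.79 to 3.48% and 1.87 to 2.55% in the CD44v6-negative samples. Both CD44v6-positive samples lay above both CD44v6-negative samples, and within the CD44v6-positive group the shares were close although the depth and the levels were not. In other terms there were 17.4 and 18.2 reads of miR-192-5p per read of miR-215-5p in CD44v6-positive samples, and 31.0 and 44.7 in CD44v6-negative samples. The log2 ratio of miR-215-5p to miR-192-5p averaged -4.15 ± 0.05 in CD44v6-positive and -5.22 ± 0.37 in CD44v6-negative samples (SD, n = 2 each), a difference of 1.07. The exact permutation test, two-sided, gave p = 0.333, the smallest that 2 samples against 2 allow, and 0.5 after adjustment over the 3 ratios tested. Of the 569 other tested miRNAs, 79 (13.9%) were in the same way higher per read of miR-192-5p in both CD44v6-positive samples, miR-215-5p among them.

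The ratio of miR-194-5p to miR-192-5p showed no such order. Reads of miR-194-5p can come from both loci, so this is not a ratio within the chromosome 11 pair alone. miR-194-5p made up 8.60% and 4.89% of the reads of miR-194-5p and miR-192-5p together in CD44v6-positive samples 1 and 2, against 5.80% and 5.61% in CD44v6-negative samples 1 and 2. CD44v6-positive sample 1 was the highest and CD44v6-positive sample 2 the lowest. The difference of the mean log2 ratios was 0.20 (exact permutation test, two-sided, p = 1.00, n = 2 each), and it was -0.23 without CD44v6-positive sample 1. miR-194-5p made up 62.1% and 48.4% of the reads of miR-194-5p and miR-215-5p together in CD44v6-positive samples, against 65.7% and 72.7% in CD44v6-negative samples. The difference in mean log2 ratio was -0.86 (exact permutation test, two-sided, p = 0.333, n = 2 each, and 0.5 adjusted over the 3 ratios). The exact binomial interval of CD44v6-positive sample 1, 53.6 to 70.0%, contained that of CD44v6-negative sample 1, 62.5 to 68.7%. The order of this pair was thus within counting error. The interval of CD44v6-positive sample 2, 37.9 to 59.0%, lay below those of both CD44v6-negative samples. By the shares alone, without their intervals, the groups did not overlap in this ratio. Of the 569 other tested miRNAs, 290 (51%) were likewise lower per read of miR-215-5p in both CD44v6-positive samples.

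**Figure D4:**
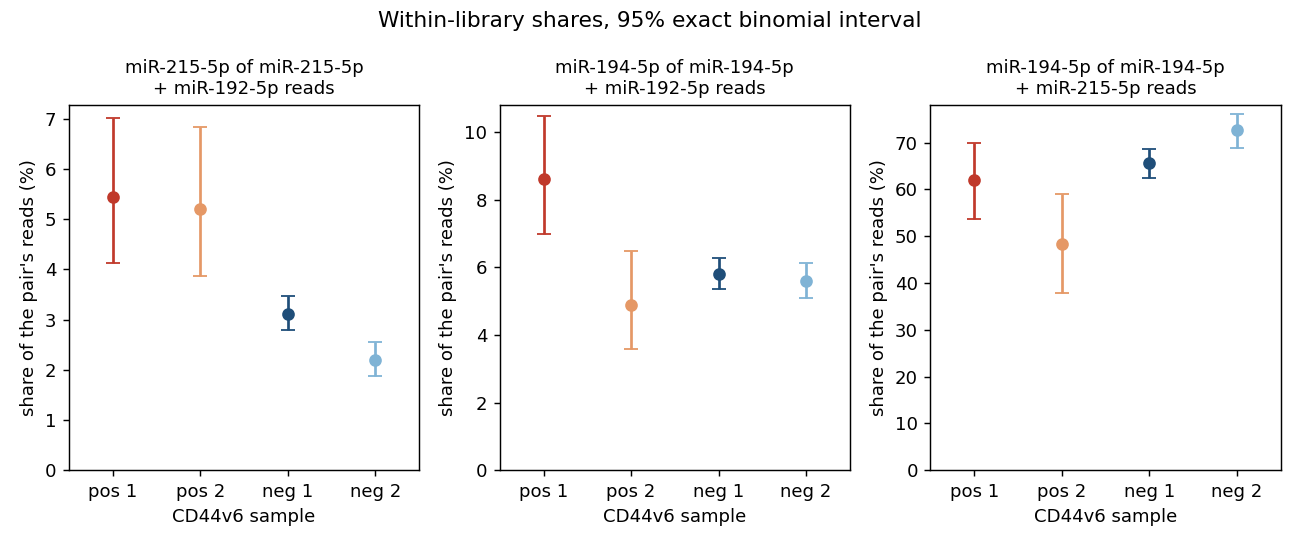
Share of a pair's reads in each sample, in percent, for miR-215-5p with miR-192-5p, miR-194-5p with miR-192-5p, and miR-194-5p with miR-215-5p; points are shares and bars exact 95% binomial intervals. In the left panel both CD44v6-positive points, at 5.44% and 5.20%, lie above both CD44v6-negative points, at 3.12% and 2.19%. The split of reads between miR-215-5p and miR-192-5p is uncertain.

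The order of the guide strands by level was miR-192-5p, then miR-194-5p, then miR-215-5p in CD44v6-positive sample 1 and in both CD44v6-negative samples. The guide strands are 21 or 22 bases long, so their CPM was not divided by length, although adapters join different sequences with different efficiency. In CD44v6-positive sample 2 miR-215-5p, at 48 reads, was level with miR-194-5p, at 45 reads, and the interval of the share of miR-194-5p, 37.9 to 59.0%, included an even split. The mean levels of miR-194-5p, 166 ± 97.1 CPM, and miR-215-5p, 155 ± 135 CPM, in CD44v6-positive cells differed by less than their spread.

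The miRNAs with the most similar pattern over the 4 samples were found by the root mean square difference between profiles of log2 CPM, each centred on its own mean. For miR-192-5p they were miR-142-5p (0.09), miR-185-3p (0.29) and miR-146a-5p (0.30), against a median of 1.16 over 567 miRNAs outside the members. For miR-194-5p they were miR-22-5p (0.10), miR-642a-3p (0.11) and the joint entry of miR-199a-3p and miR-199b-3p (0.12), against a median of 1.03. For miR-215-5p they were miR-320e (0.23), miR-30a-5p (0.30) and miR-143-3p (0.31), against a median of 1.38. The distance between miR-192-5p and miR-194-5p was 0.33, that between miR-192-5p and miR-215-5p 0.56, and that between miR-194-5p and miR-215-5p 0.54. With 4 samples such distances describe these libraries only.

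Some markers of other tissues were also highest in CD44v6-positive sample 2. miR-122-5p, which defines hepatocytes, had 45 and 117 reads in CD44v6-positive samples 1 and 2, against 24 and 22 reads in CD44v6-negative samples 1 and 2, although the CD44v6-negative libraries were deeper. These were 48.5 and 609 CPM in CD44v6-positive samples and 4.59 and 3.99 CPM in CD44v6-negative samples, a log2 fold change of 6.22 ± 1.32 (SE, edgeR adjusted p = 0.0787), which DESeq2 called (adjusted p = 2.45e-07). Whether these reads came from the sorted cells was not tested. Its passenger miR-122-3p, the other entry of that list, had 0 reads in every sample. The 9 entries of stroma and muscle summed to 924 and 5202 CPM in CD44v6-positive samples and to 1340 and 915 CPM in CD44v6-negative samples. Most of that was miR-143-3p, at 745 and 4968 CPM in CD44v6-positive samples and 1083 and 664 CPM in CD44v6-negative samples. miR-145-5p of the same list was instead lowest in CD44v6-positive sample 2. It was at 100 and 57.3 CPM in CD44v6-positive samples and at 179 and 197 CPM in CD44v6-negative samples. The muscle miRNA miR-1-3p had 1 and 0 reads in CD44v6-positive samples 1 and 2, against 4 and 0 reads in CD44v6-negative samples 1 and 2. In the same order miR-133a-3p had 5 and 0 against 7 and 0 reads. Of other markers, miR-214-3p had 1 and 1 against 7 and 5 reads, and miR-223-3p had 3 and 1 against 11 and 4 reads. A count of 0 in CD44v6-positive sample 2 allows up to 15.6 CPM, so absence from that library is not shown.

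The 8 entries of blood cells summed to 3778 and 3744 CPM in CD44v6-positive samples and to 3132 and 1410 CPM in CD44v6-negative samples. Most of that was miR-486-5p, at 3685 and 3109 CPM in CD44v6-positive samples and 2972 and 1288 CPM in CD44v6-negative samples. miR-486-5p was not highest in CD44v6-positive sample 2, where it made up 3109 of the 3744 CPM. The rest of the list together was highest in that sample. The erythrocyte miRNA miR-451a was at 15.1 and 281 CPM in CD44v6-positive samples and at 24.9 and 7.61 CPM in CD44v6-negative samples. miR-142-5p, a leukocyte miRNA and the nearest in pattern to miR-192-5p, was at 60.4 and 276 CPM in CD44v6-positive samples and at 114 and 90.8 CPM in CD44v6-negative samples. The other arm, miR-142-3p, was at 9.70 and 20.8 CPM in CD44v6-positive samples and at 15.1 and 20.3 CPM in CD44v6-negative samples. It had 9 and 4 reads in the CD44v6-positive samples, and its log2 fold change was -0.37. Of the tested entries, 1 of 1 for liver, 3 of 4 for blood and 3 of 4 for stroma and muscle had positive log2 fold changes, and 0 passed in edgeR. The median was 0.67 for blood and 1.23 for stroma and muscle, against -0.31 over all tested miRNAs. Only 4 of 8 entries of blood and 4 of 9 of stroma and muscle were tested. Liver also expresses miR-192 and miR-194, and the part of these markers in the levels of miR-192-5p, miR-194-5p and miR-215-5p was not tested. In RNA of sorted populations, fewer cells that express a miRNA and less of it per cell cannot be told apart.

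**Figure D5:**
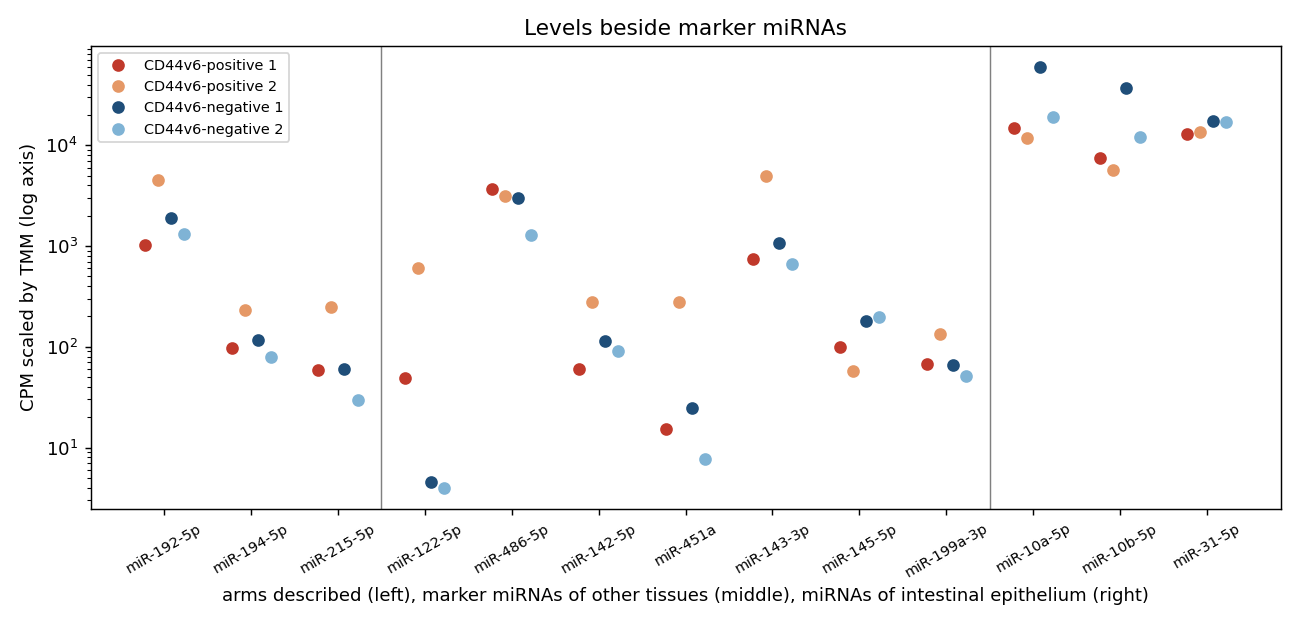
Levels in each sample, in CPM scaled by TMM on a log axis, of the 3 guide strands (left), of the most abundant tested marker miRNAs of liver, blood, stroma and muscle (middle) and of intestinal epithelium (right). CD44v6-positive sample 2 is the highest sample for the guide strands and for miR-122-5p, miR-142-5p, miR-451a, miR-143-3p and miR-199a-3p, but not for miR-486-5p, miR-145-5p or the miRNAs on the right.

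The wider set of miRNAs of intestinal epithelium gave mostly negative values. All 20 entries in the table were tested, 18 had negative and 2 positive log2 fold changes, and their median was -1.40, against -0.31 over all tested miRNAs. In 14 of the 20 both CD44v6-positive samples lay below both CD44v6-negative samples, and in 2 above, against 34.6% and 24.9% of all tested miRNAs. With edgeR 0 of the 20 passed. DESeq2 called 5, all lower, while over all miRNAs it called 51 of 603 (8.46%), 21 higher and 30 lower. The most abundant were the HOX-cluster miRNA miR-10a-5p (-1.56 ± 0.62), miR-10b-5p (-1.91 ± 0.62) and miR-31-5p (-0.37 ± 0.39), given as log2 fold change ± SE. The summed level of the 20 entries was 64808 and 56552 CPM in CD44v6-positive samples and 172235 and 89002 CPM in CD44v6-negative samples. In each CD44v6-positive library 1 of the 20 had 0 reads, and in each CD44v6-negative library all had reads. The CD44v6-positive libraries were shallower. A count of 0 allows up to 3.23 and 15.6 CPM in CD44v6-positive samples 1 and 2, so these zeros do not show a lower level.

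Other miRNAs reported to respond to p53 did not share 1 direction. Of 21 entries 14 were tested, 5 with positive and 9 with negative log2 fold changes, and the median was -0.68. With edgeR 0 of the 14 passed, and DESeq2 called 1 higher and 2 lower, beside the 8.46% that it called over all miRNAs. The most abundant were miR-22-3p (0.06 ± 0.42), miR-200c-3p (-0.61 ± 0.69) and miR-141-3p (-2.41 ± 0.57), and miR-200c-3p and miR-141-3p are among 4 entries that this list shares with the epithelial list. It also shares 2 entries with the list of stroma and muscle. With TMM the summed level was 22151 and 23443 CPM in CD44v6-positive samples and 35018 and 23961 CPM in CD44v6-negative samples. In CPM of total reads, without TMM, the groups overlapped in this sum.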

How the data were processed

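Small RNA libraries were made by the authors from total RNA with an Illumina small RNA kit and selected by size on a gel, per the labels' protocols. The authors deposited raw counts of reads per mature miRNA, whole numbers that were used here as deposited. Their size-factor normalized copy was not used here. The submitters' processing notes name CASAVA 1.8.2, cutadapt 1.10, Bowtie 0.12.9, DESeq2 and GRCh38; their roles, the miRNA annotation and the handling of reads that fit several entries are not given in the sources at hand.

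Of 2026 entries, 1510 had a read and 570 passed filterByExpr (minimum count 10, minimum total count 15). They were tested with edgeR 4.0.16 under R 4.3.3 (TMM, glmQLFit, glmQLFTest, group as the only term), with Benjamini-Hochberg adjustment over the 570 and a call at an adjusted p under 0.05. Each SE is the size of the log2 fold change over the root of its F statistic. Alternatives were upper quartile, RLE and total count scaling, no filter, 10 CPM in 2 samples, DESeq2 1.42.0, limma-voom 3.58.1, the replicate number as a block, and leaving out each sample. Profiles used log2 CPM with a prior count of 2. Sequences were from RefSeq, and hosts from GENCODE release 29. The members and the lists (p53-responsive, intestinal epithelium, blood, stroma with muscle, liver) were chosen with earlier results of these data known. Named were the members, their 3 nearest profiles, and up to 3 of the most abundant tested entries of each list. miR-215-3p, miR-122-3p, miR-142-3p, miR-1-3p, miR-133a-3p, miR-214-3p and miR-223-3p were named after their values were seen.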

Additional observations from a re-analysis of the deposited data

How the results depend on the processing

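Over all tested miRNAs the number of calls was 0 with TMM, upper quartile and RLE scaling and with the 10 CPM filter, but 48 with total count scaling, 77 with no filter, 51 with DESeq2, 4 with limma-voom and 26 to 55 with 1 sample left out. At an unadjusted p under 0.05, 74 were higher and 100 lower with TMM, 97 and 69 with upper quartile, and 77 and 59 with total count scaling. Leaving out 1 sample in turn, the log2 fold change ran from -0.43 to 1.39 for miR-192-5p, from 0.20 to 1.15 for miR-194-5p and from 0.59 to 2.42 for miR-215-5p, with no member passing. The value of -0.43 is that without CD44v6-positive sample 2, and the cause was not tested. Where a group keeps 1 sample, that sample is assumed to vary like the other group. The difference in log2 ratio ran from -0.23 (without CD44v6-positive sample 1) to 0.64 for miR-194-5p to miR-192-5p, from 0.80 to 1.33 for miR-215-5p to miR-192-5p and from -1.27 to -0.46 for miR-194-5p to miR-215-5p. With no filter the log2 fold changes were 0.24, 0.24 and 1.18 for miR-192-5p, miR-194-5p and miR-215-5p. The 3p arms gave no value in the filtered fits, and ratios with them were not computed where an arm had 0 reads.

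With the replicate number as a block, 228 of 570 miRNAs were called (40%), and miR-215-5p was among them at 1.51 (edgeR adjusted p = 0.0350), whereas miR-192-5p (0.46) and miR-194-5p (0.64) were not. The deviations of same-numbered samples from their group means correlated at 0.37 over 570 miRNAs, which are not independent replicates. The labels do not say that a number marks a shared culture, so whether same-numbered samples were paired is not known. The adjusted p of miR-215-5p over the alternatives other than the block lay from 0.0561 to 0.685.

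The CD44v6-positive libraries limit the 3p arms and, at 45 to 90 reads, the ratios of miR-194-5p and miR-215-5p.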
